A study of Mus musculus with 2 samples.

Results

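Mir103-1, Mir103-2 and Mir107 are a small family of microRNA genes that lie within introns of the pantothenate kinase genes Pank3, Pank2 and Pank1. They were taken by gene name and make up 3 of the 2202 microRNA genes counted, a rule that uses no measured value. Female mice of the B6CASTF1/J hybrid, the first generation of a cross between the C57BL/6J and CAST/EiJ strains, gave left cerebral cortex at 25 days of age, from which the small RNA was sequenced. No treatment or engineered allele is named for them. The study has 1 group of 2 libraries, labelled as biological replicates 1 and 2 and numbered as separate animals, although both carry the same donor record. With a single group, no condition was set against another, and differences between the libraries measure the spread between these samples, which may be technical.

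Pantothenate kinases catalyse the rate-limiting first step of coenzyme A synthesis, so the hosts are metabolic enzymes present in most tissues. A microRNA in an intron can be cut from the host's primary transcript as a hairpin, and Dicer then releases a duplex of a 5p and a 3p arm. One arm is loaded into Argonaute, and its bases 2 to 8, the seed, lead the pairing with target messenger RNAs. The 3p arms miR-103-3p and miR-107-3p are the arms usually described as active. They are known for lowering Dicer itself and for acting on caveolin-1 and insulin sensitivity, and both are known from brain.

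The sequences show how little separates the 3 genes. All 3 genes matched a RefSeq hairpin on GRCm38.p6 with the same ends as in the GENCODE M21 annotation. The hairpins are printed 5′ to 3′ with both mature arms in capitals, since the text turns on which bases differ within and outside the arms.
Mir103-1: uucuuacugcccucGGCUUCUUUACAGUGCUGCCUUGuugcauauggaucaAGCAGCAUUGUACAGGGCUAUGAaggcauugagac
Mir103-2: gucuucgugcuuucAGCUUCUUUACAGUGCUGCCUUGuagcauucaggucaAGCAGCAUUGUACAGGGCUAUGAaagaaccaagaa
Mir107: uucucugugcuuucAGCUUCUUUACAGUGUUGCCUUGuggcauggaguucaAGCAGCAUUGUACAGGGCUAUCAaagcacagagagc

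The mature arms are shown next with the seed in capitals. Each arm is 23 nt long. The 5p arms cover bases 15 to 37 of each hairpin, and the 3p arms cover bases 52 to 74.
miR-103-3p (from Mir103-1 and Mir103-2): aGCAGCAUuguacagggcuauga
miR-107-3p: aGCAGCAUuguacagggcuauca
miR-103-1-5p: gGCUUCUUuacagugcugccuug
miR-103-2-5p: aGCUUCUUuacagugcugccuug
miR-107-5p: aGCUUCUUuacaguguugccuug

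All 3p arms of the family share the seed GCAGCAU, and among 1679 mature names in the RefSeq table only miR-103-3p and miR-107-3p carry it. All 3 5p arms share the seed GCUUCUU, which no other mature name in that table has. The 3p arm is identical in Mir103-1 and Mir103-2. It differs from miR-107-3p at a single base, G22C, with positions counted from 1 at the 5′ end of the arm. Among the 5p arms, miR-103-1-5p differs from miR-103-2-5p by G1A, and miR-103-2-5p differs from miR-107-5p by C16U. No difference within the family falls in a seed.

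Outside the arms the hairpins diverged more. Over the first 86 bases, Mir103-2 and Mir107 were identical at 84.9%, and Mir103-1 was identical to each of them at 80.2%. Between the Mir103 genes, 5 of 14 bases differed in the loop between the arms, 5 of 14 in the 5′ flank and 6 of 12 in the 3′ flank. The gene with the identical 3p arm was therefore not the gene with the most similar hairpin: Mir103-2 differed from Mir103-1 at 17 bases and from Mir107 at 13. GC content was 47.7% for Mir103-1, 45.3% for Mir103-2 and 47.1% for Mir107, against a median of 51.7% over the 1005 mouse hairpins of the table. The folding energy predicted by RNAfold was -35.8, -31.8 and -41.2 kcal/mol in the same order, with 33, 33 and 36 predicted base pairs.

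The genes lie on the strand of their hosts and overlap no other annotated gene on either strand. On mm10, Mir103-1 (ENSMUSG00000065553.1) occupies the plus strand of chromosome 11 from 35782396 to 35782481. It sits in intron 5 of the 6 introns of the sole annotated Pank3 transcript, 688 nt after the preceding exon and 966 nt before the next, in an intron of 1740 nt. Mir103-2 (ENSMUSG00000065563.1) occupies the plus strand of chromosome 2 from 131288052 to 131288137. It is intronic in 7 of 8 Pank2 transcripts and lies outside the other, and in the protein-coding transcript with 6 introns it lies in intron 5, 454 nt after an exon and 5261 nt before the next.

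Mir107 (ENSMUSG00000065594.1) occupies the minus strand of chromosome 19 from 34820687 to 34820773. It is intronic in 3 of 4 Pank1 transcripts and lies outside the other. In both protein-coding transcripts with 6 introns it is in intron 5, 326 nt after an exon in an intron of 7282 nt. In these protein-coding transcripts each gene lies in intron 5, nearer to the exon before it than to the one after. Other protein-coding transcripts differ: Mir103-2 lies in intron 2 of 3 of another Pank2 transcript, 13788 nt after an exon and 5261 nt before the next. Mir107 lies in intron 4 of 5 of another Pank1 transcript, at the same distances from exons. No other counted microRNA gene lies within 10 kb of any of them, so none belongs to a microRNA cluster of that span.

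**Figure D1:**
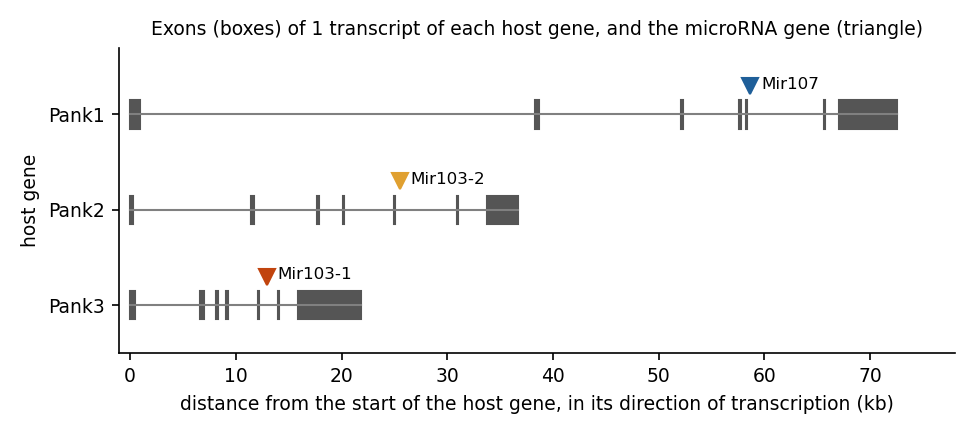
Exons (boxes) of 1 protein-coding transcript with 6 introns for each host gene, drawn to scale against the distance in kb from the start of the host in its direction of transcription, with a triangle at the microRNA gene. Each microRNA gene lies in intron 5, and the host lengths are 21802 nt for Pank3, 36694 nt for Pank2 and 72516 nt for Pank1.

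Counts on the microRNA genes' own strand summed to 3017058 in replicate 1 and 3209361 in replicate 2, and levels are given as counts per 1000000 of that sum (CPM). The 395 genes with 10 or more counts in each library were taken as detected. Reads placed at several loci are a class apart from the gene counts and made up 40.34% and 38.99% of all reads. Neuronal marker genes, 5 of 8 detected, summed to 210700 CPM in replicate 1 and 197202 CPM in replicate 2, with the Mir124a copies near 0 at up to 2.80 CPM. Markers of liver, heart and muscle, 3 of 7 detected, summed to 79.2 and 88.5 CPM, with Mir1a-1, Mir1a-2, Mir133a-1 and Mir133a-2 at 0 in both. All these sums leave out reads placed at several loci. Low or 0 counts of genes with copies, such as Mir124a, Mir1a and Mir133a, therefore do not show that the mature arms were absent. How many of the reads placed at several loci came from these genes was not tested.

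Nearly all counts of the family belonged to Mir107. It had 11520 counts in replicate 1 and 8934 in replicate 2, which is 3818 and 2784 CPM (3301 ± 731.5, SD, n = 2) and 0.382% and 0.278% of all microRNA gene counts. Mir107 stood at rank 50 of the 395 detected genes by mean level, and, over all genes, at rank 46 in replicate 1 and 54 in replicate 2. The library with more counts was replicate 1, and exact 95% Poisson intervals, 3749 to 3889 CPM and 2726 to 2842 CPM, did not overlap. These and all later intervals were computed from the counts alone, so they describe counting error and not the spread between samples. PCR copies were not told apart by molecular identifiers, so the intervals may be too narrow even for that.

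Mir103-2, in the Pank2 intron, had 125 and 114 counts in replicates 1 and 2. Its level was 41.4 CPM in replicate 1 and 35.5 CPM in replicate 2 (38.5 ± 4.18, SD, n = 2), at rank 245 of the detected genes. Its libraries lay close together, with overlapping counting intervals of 34.5 to 49.4 and 29.3 to 42.7 CPM.

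Mir103-1, in the Pank3 intron, had 39 and 16 counts. Its level was 12.9 CPM in replicate 1 and 4.99 CPM in replicate 2 (8.96 ± 5.62, SD, n = 2), at rank 330 of the detected genes. Replicate 1 was the higher library here too, and the intervals of 9.19 to 17.7 and 2.85 to 8.10 CPM did not overlap. Both libraries nevertheless stood above the level that a count of 0 allows, 0.994 CPM in replicate 1 and 0.935 CPM in replicate 2.

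**Figure D2:**
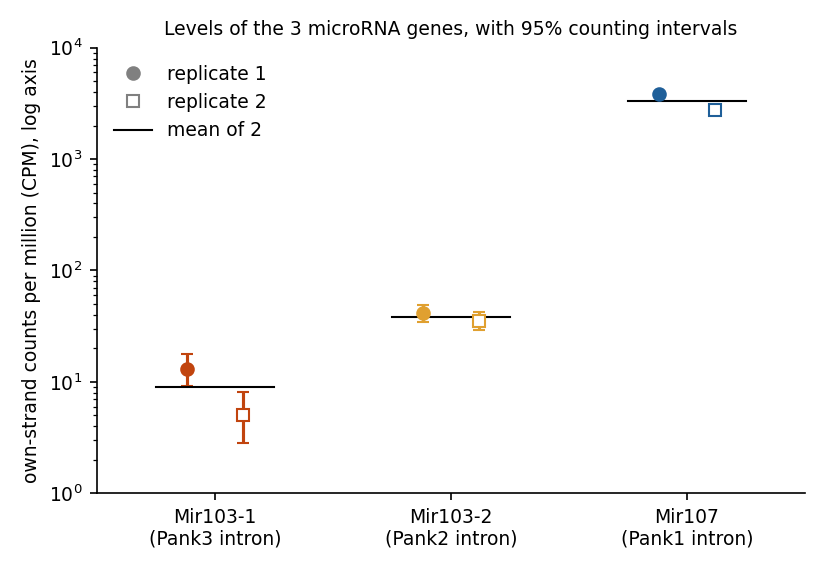
Own-strand CPM on a log axis for each gene, with a filled circle for replicate 1, an open square for replicate 2, a line for the mean of both and bars for 95% counting intervals. Mir107 lies at 3818 and 2784 CPM, Mir103-2 at 41.4 and 35.5 CPM and Mir103-1 at 12.9 and 4.99 CPM, in the same order in both libraries.

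The order Mir107, Mir103-2, Mir103-1 held in each library, and the counting intervals of neighbours in that order did not overlap within either library. The hairpins are 86, 86 and 87 nt long, so levels per length follow the same order. Mir107 had 92.2 counts for each count of Mir103-2 in replicate 1 (exact 95% interval 77.3 to 110.8) and 78.4 in replicate 2 (65.2 to 95.1). Mir103-2 exceeded Mir103-1 by a ratio of 3.21 in replicate 1 (2.22 to 4.72) and of 7.13 in replicate 2 (4.20 to 12.9). Both pairs of intervals overlapped between the libraries, which is no test that the ratios were equal.

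For each gene, the share of the family's counts had overlapping counting intervals in the libraries, which is no test that the shares were equal. Mir107 supplied 98.6% of the family's counts in replicate 1 (Clopper-Pearson 95% interval 98.37 to 98.80) and 98.57% in replicate 2 (98.30 to 98.80). Mir103-2 supplied 1.07% (0.891 to 1.27) and 1.26% (1.04 to 1.51), and Mir103-1 supplied 0.334% (0.238 to 0.456) and 0.177% (0.101 to 0.287). Mir107 had 70.2 counts for each count of both Mir103 genes together in replicate 1 (60.2 to 82.5) and 68.7 in replicate 2 (57.8 to 82.4). In the gene counts, the summed level of the family was 3873 CPM in replicate 1 and 2824 CPM in replicate 2 (3348 ± 741.3, SD, n = 2). These shares, ratios and sums leave out reads placed at several loci, so they do not give the shares or levels of mature arms. Reads of the arm that is identical in both Mir103 genes can fall in that class. The number of such reads that came from the family was not tested.

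All counts of the 3 genes were on their own strand, which is also the strand of the hosts. The opposite strand had 0 counts for each gene in each library. For Mir107 this allows an opposite-strand share of up to 0.026% in replicate 1 and 0.0336% in replicate 2, and for Mir103-1, with far fewer counts, of up to 7.69% and 18.8%. A lack of opposite-strand counts was common, and 92.9% of detected genes had none in either library.

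The counts have to be read against the sequences printed above, because the tables keep reads placed at several loci in a class of their own, outside the gene counts. A gene's count joins its 5p and 3p arms, and the tables do not show which arm or which read length gave it. Taken from its first base, the 3p arm of Mir107 is the same as that of both Mir103 genes up to 21 nt, and from 22 nt, which includes the base of G22C, it occurs in the Mir107 hairpin only. The 3p arm of the Mir103 genes is shared by both over its full 23 nt, and a read from its first base needs 25 nt, 2 bases past the arm, to occur in one of their hairpins only. By contrast, each 5p arm, taken from its first base, occurs in 1 hairpin, from 16 nt for Mir103-2 and Mir107 and from 15 nt, the shortest length tried, for Mir103-1. Mir103-2 and Mir107 are told apart here by base 16 of the arm, and the Mir103 genes by its first base alone. The 22-nt window that starts just after that first base, at base 16 of the hairpin, occurs in both Mir103 hairpins.

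Across the whole hairpins, the stretch shared by all 3 genes was the 24 nt from base 49 to base 72, and Mir103-1 and Mir103-2 shared 27 nt, from base 49 to base 75. Of the 20-nt windows, 12 of 67 in Mir103-1, 16 of 67 in Mir103-2 and 9 of 68 in Mir107 occurred in at least 1 other hairpin of the RefSeq table, on either strand. Those other hairpins were always members of the family, since no hairpin outside it shared even an 18-nt window. In the GENCODE M21 transcripts, miR-103-3p was found in Mir103-1 and Mir103-2 and each other arm in its own gene only. Introns and intergenic sequence were not searched. How many of the 3425133 and 3621909 reads placed at several loci came from miR-103-3p or from shorter forms of miR-107-3p was not tested, and the gene counts hold none of them.

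**Figure D3:**
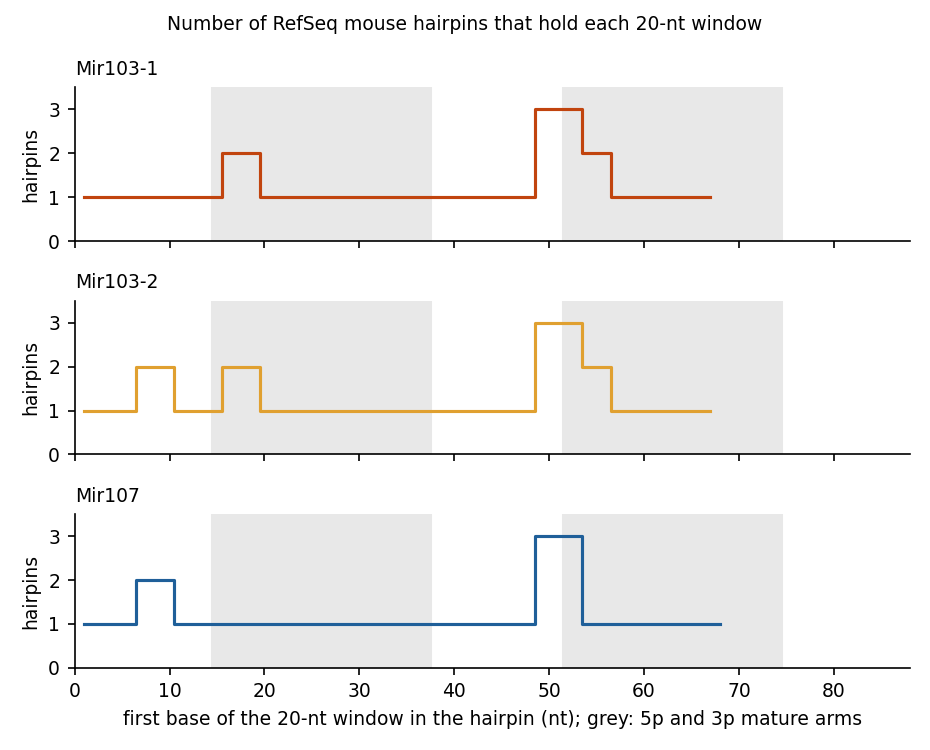
For each hairpin, the number of RefSeq mouse hairpins that hold the 20-nt window starting at each base, with the 5p and 3p arms shaded in grey. The windows found in all 3 hairpins begin just before or within the 3p arm, and 5 such windows exist in each gene.

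Between the libraries, all 3 genes were higher in replicate 1. Each gene was tested with an exact binomial test, two-sided, on library sizes scaled by the TMM method of edgeR, with Benjamini-Hochberg adjustment over the 496 genes with at least 10 counts in total, and was called at an adjusted p under 0.05. It compares 2 libraries and not conditions. Of all genes tested, 56.5% were called, 30.6% as higher in replicate 1 and 25.8% as higher in replicate 2, so a call was common in these libraries. The common biological coefficient of variation between them was 36.7%.

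Mir107 was 1.61-fold higher in replicate 1, a log2 ratio of replicate 2 against replicate 1 of -0.68 (95% counting interval -0.72 to -0.64, adjusted p = 7.42e-250 in the exact binomial test). Mir103-1 was 3.04-fold higher in replicate 1, with a log2 ratio of -1.60 (-2.54 to -0.73, adjusted p = 2.65e-04 in the exact binomial test). The counting interval of Mir103-1 lay just below that of Mir107, without overlap. Mir103-2 was 1.37-fold higher in replicate 1, with a log2 ratio of -0.45 (-0.83 to -0.073, adjusted p = 0.0298 in the exact binomial test). With unscaled library totals, on which the CPM rest, the log2 ratio was -0.46 for Mir107 and -1.37 for Mir103-1, both still called. The call for Mir103-2 was lost with library totals, at a log2 ratio of -0.22 and an adjusted p of 0.333 in the exact binomial test. It was also lost in the either-strand counts, at -0.40 and 0.0565. Over its alternatives the adjusted p of Mir103-2 ran from 0.018 to 0.333 in the exact binomial test. The median log2 ratio of the 3 genes was -0.68, against 0.0058 over all genes tested.

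TMM scaling moved the median log2 ratio of all tested genes by -0.23 relative to library totals, and the directions are relative to it. With library totals, 36.2% of calls were higher in replicate 1, in place of 54.3%, and the 3 genes kept their direction. Levels of marker genes of other cell types, in CPM without TMM scaling, also differed between the libraries. Oligodendrocyte markers summed to 3661 CPM in replicate 1 and 5621 CPM in replicate 2, the endothelial marker Mir126a was at 5714 and 8835 CPM, astrocyte markers summed to 29590 and 25386 CPM, immune markers to 2041 and 1618 CPM and red blood cell markers to 31.5 and 51.4 CPM. Of the red blood cell markers, Mir144 was not called, at 8.95 and 9.97 CPM. Mir126a, Mir219a-2, Mir338, Mir142 and Mir451a had at most 3 counts per library in the either-strand column. The part of these cell types in the ratios of the Mir103 and Mir107 genes was not tested. In bulk tissue, fewer cells of a type and less RNA per cell cannot be told apart.

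**Figure D4:**
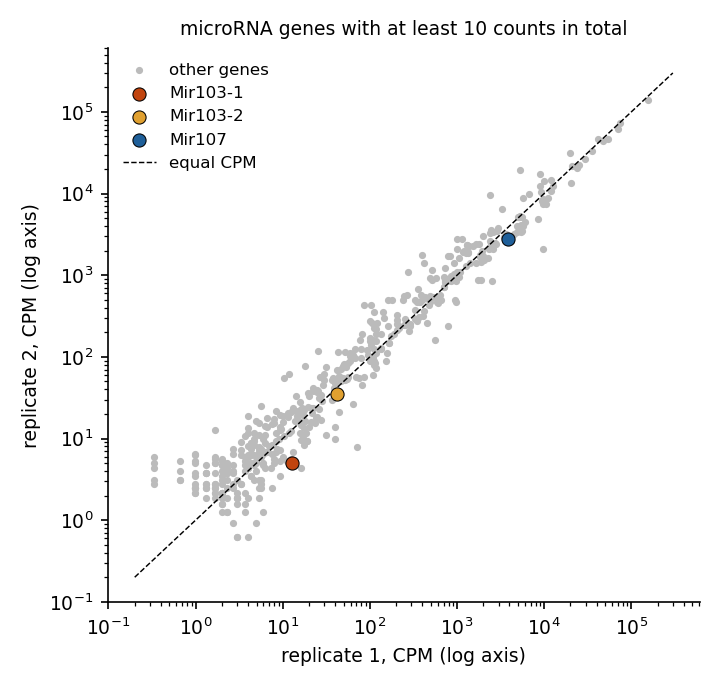
CPM in replicate 2 against replicate 1, both on log axes, for 493 microRNA genes with at least 10 counts in total and counts in both libraries, with the 3 genes coloured and a dashed line at equal CPM. All 3 coloured points lie below the line, with Mir103-1, at 12.9 and 4.99 CPM, furthest from it.

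The genes most like each member over the 2 libraries were found by distance in log2(CPM + 1) among detected genes, those with predicted Gm names left out. Mir107 lay nearest to Mir335, an imprinted microRNA in an intron of Mest, at a distance of 0.161, with 4179 and 2608 CPM. Mir181b-2 at 3450 and 2959 CPM and the let-7 family gene Mir98 at 3691 and 3193 CPM followed at 0.171 and 0.204. By mean level, Mir30e and Mir335 stood just above Mir107, and Mir181b-2 and Mir128-2 just below, all between 3186 and 3393 CPM and within the spread of their libraries.

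Mir103-2 lay nearest to Mir467c (distance 0.236), Mir494 (0.311) and Mir3057 (0.409), whose mean levels were 40.1, 33.2 and 43.6 CPM. Its neighbours by mean level were Mir467c and Mir26a-1 above and Mir6236 and Mir592 below. Mir103-1 lay nearest to Mir6915 (0.147), Mir1231 (0.197) and Mir499 (0.346), with 9.10, 8.28 and 10.3 CPM on average. Its neighbours by mean level were Mir144 and Mir6915 above and Mir6945 and Mir3058 below. With 2 libraries, such likeness describes levels and little else.

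The family belongs to a wider set, named after miR-15 and miR-107, whose mature arms hold AGCAGC near the 5′ end. It is printed with AGCAGC in capitals to show the shift by 1 base: the motif begins at base 1 in miR-103-3p and miR-107-3p and at base 2 in the others, which changes the seed.
miR-107-3p: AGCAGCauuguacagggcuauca
miR-15a-5p: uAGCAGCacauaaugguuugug
miR-15b-5p: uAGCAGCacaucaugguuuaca
miR-16-5p: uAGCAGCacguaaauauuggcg
miR-195a-5p: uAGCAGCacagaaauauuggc
miR-497a-5p: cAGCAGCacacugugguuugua
miR-322-5p: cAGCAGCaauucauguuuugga
miR-503-5p: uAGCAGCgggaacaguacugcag

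Of the 1679 mature names in the RefSeq table, 13 (0.774%) held AGCAGC starting at base 1, 2 or 3, read on the mature strand. All 8 other genes of the group on the list were detected, with a median of 378.4 CPM against 100.6 CPM over detected genes. In the gene counts, which leave out reads placed at several loci, Mir107 at 3301 CPM was above each of these 8. The arm miR-16-5p is identical in Mir16-1 and Mir16-2, as miR-103-3p is in its genes, so the order is not one of mature arms. Mir497, at 1071 ± 954.2 CPM, and Mir322, at 997 ± 80.1 CPM, came next, and Mir503, at 24.6 ± 2.21 CPM, was the lowest. Mir103-2, at 38.5 CPM, lay between Mir503 and Mir16-2, at 62.7 ± 25.2 CPM, and Mir103-1 lay below all 8.

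Calls in the group went both ways between the libraries, as they did over all genes tested, of which 30.6% were called higher in replicate 1 and 25.8% in replicate 2. Of its 8 genes, Mir15b, Mir16-2 and Mir322 were called higher in replicate 1, Mir15a, Mir195a and Mir497 were called higher in replicate 2, and Mir16-1 and Mir503 were not called, with log2 ratios of 0.19 and -0.41. With library totals, 2 were called higher in replicate 1 and 4 in replicate 2, as Mir15b lost its call and Mir16-1 gained one. The median log2 ratio of the list was -0.026 with TMM scaling and 0.20 with library totals, against 0.0058 and 0.23 over all genes tested. Summed over these 8 genes the level was 2550 CPM in replicate 1 and 4911 CPM in replicate 2. Most of that difference lay in Mir15a, at 276.1 and 1086 CPM, and Mir497, at 396.1 and 1746 CPM. Mir497 had 0 counts in the either-strand column.

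Other families with near-identical copies gave a mixed picture beside Mir103 and Mir107. Among them was the Mir26 family, in the Ctdsp phosphatase genes. There miR-26a-5p occurs in the hairpins of Mir26a-1 and Mir26a-2, and a read from its first base needs 26 nt to occur in one of them only. Mir26a-1 had 213 and 25 counts (39.2 ± 44.4 CPM) and Mir26a-2 had 121 and 32 (25.0 ± 21.3 CPM), whereas Mir26b, whose arms each occur in 1 hairpin, had 17322 and 12960 (4890 ± 1204 CPM). As with Mir103 and Mir107, the single-hairpin member was the high one in each library, and all 3 Mir26 genes were called higher in replicate 1 with TMM scaling, DESeq2 size factors and library totals. Over all 496 genes tested, 152, 156 and 102 were called higher in replicate 1 under these scalings, so such a call is common.

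The Mir128 pair, unlike the Mir26 family, has no member whose arms each occur in 1 hairpin. Mir128-1 in R3hdm1 and Mir128-2 in Arpp21 share miR-128-3p, and a read from its first base needs 22 nt, 1 base past the arm, to occur in one hairpin only. Both were high, at 13186 ± 1882 and 3186 ± 469.1 CPM, and they share an arm as the Mir103 genes do. Whether a shared arm lowered the gene counts in any of these families was not tested. Mir218-1 in Slit2 and Mir218-2 in Slit3, which share miR-218-5p, stood at 18.4 ± 1.69 and 130.1 ± 6.36 CPM. Mir7-1 in Hnrnpk and Mir7-2, which has no host on its strand, share miR-7a-5p and stood at 52.3 ± 4.53 and 118.2 ± 58.0 CPM, while Mir153, single in the list, stood at 231.9 ± 170.4 CPM. Of these 10 genes, all were detected, 4 were called higher in replicate 1 and 4 higher in replicate 2, beside 30.6% and 25.8% of all genes tested. Their median log2 ratio was -0.046, against 0.0058 over all genes tested. With library totals these were 3 and 4 genes and a median of 0.18, against 0.23, as Mir218-2 lost its call.

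**Figure D5:**
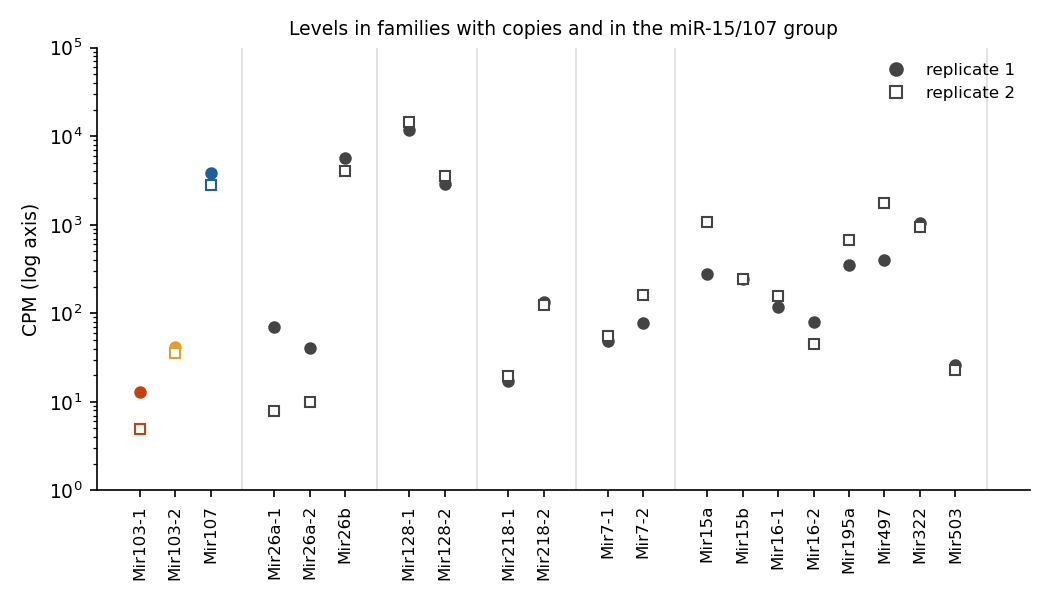
CPM on a log axis in replicate 1 (filled circle) and replicate 2 (open square) for Mir103-1, Mir103-2 and Mir107 (coloured) and for the comparison families, separated by grey lines. Mir107 and Mir26b lie near 3301 and 4890 CPM on average, far above the Mir103 and Mir26a genes, while both Mir128 genes are high.

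Beside the pantothenate kinase hosts, 2 other microRNA genes in introns of genes of lipid metabolism were listed. Mir33, in the sterol regulator gene Srebf2, had 78 and 102 counts (28.8 ± 4.19 CPM) and was not called, with a log2 ratio of 0.069. Mir378a, in the coactivator gene Ppargc1b, had 16199 and 11221 counts (4433 ± 1324 CPM), was called higher in replicate 1 with a log2 ratio of -0.85, and had 0 counts in the either-strand column. Mir107, between them in level, was nearer to Mir378a, and the Mir103 genes were near or below Mir33.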

How the data were processed

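The deposited tables hold raw read counts per microRNA gene on mm10 with annotation M21, per the labels and the deposited description of the files. For the aligner and the counter, the name is not given in the sources used here. No header names the columns, and the roles of the columns (either, own and opposite strand) were read from the values. The 4 classes of unassigned reads stayed out of library sizes. All 2202 identifiers matched M21 names. CPM used the own-strand sum, with SD over 2 replicates. The libraries were compared by an exact binomial test with TMM factors of edgeR 4.0.16, computed on genes with at least 10 counts in total. The quasi-likelihood test of edgeR needs groups and was not used. DESeq2 1.42.0 gave alternative size factors. The comparison was tested on simulated data with Poisson counting error alone. That simulation held no spread between samples, so it cannot show how the test behaves with such spread.

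Hairpins and arms came from RefSeq on GRCm38.p6, and folding from RNAfold 2.7.2. Other software was R 4.3.3, Python 3.11.15, scipy 1.17.1, numpy 2.4.6, matplotlib 3.10.9 and pandas 2.3.3. The genes and lists were chosen with earlier results of these data known. Genes named were the 3 members, the listed comparison genes, the 3 likest genes, the 2 neighbours on each side by level and single genes of the cell type marker lists.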

Additional observations from a re-analysis of the deposited data

Results flagged for a closer look

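Reads placed at several loci lie outside the gene counts and drew attention for their size, 40.34% of replicate 1 and 38.99% of replicate 2. The share of them that belongs to the Mir103 and Mir107 genes was not tested. With 2 libraries in the group, no search for a sample far from the others was possible.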

How the results depend on the processing

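With all reads as the denominator, levels were 3.16 for Mir103-1, 13.5 for Mir103-2, 1159 for Mir107 and 1176 for their sum, per 1000000 reads, since that denominator is larger. The log2 ratio of Mir103-2 was -0.22 with library totals and -0.40 in the either-strand column, neither of them called, and DESeq2 size factors, equal depth and both other count minimums kept its call. Shared windows of 22 nt numbered 10 in Mir103-2 and 5 in Mir107, as longer windows match less often. Leaving out a replicate gave 4.99 to 12.9 CPM for Mir103-1, 35.5 to 41.4 CPM for Mir103-2, 2784 to 3818 CPM for Mir107 and 2824 to 3873 CPM for the sum. It gave shares of 0.177% to 0.334% for Mir103-1, 1.07% to 1.26% for Mir103-2 and 98.57% to 98.60% for Mir107. Of 62 values under other settings, 54 kept direction and call (log2 ratios), stayed within 1 SD (levels and shares) or stayed within 1.5 times (counts of called genes and of shared windows). With 2 libraries, leaving out 1 always gives a level or share within 1 SD of the mean, whatever the counts. Shares in the either-strand column were fixed too, because the 3 genes had the same counts there as on their own strand. Neither kind of value could have moved, so neither is a check. Mir103-1 has too few counts for the minimum of 100. The search of the whole genome for copies was not run. Counts of Mir103-1, at most 39 in a library, limit its precision.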
